A study of Mus musculus with 6 samples.

Results

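The genes described are 10 markers of dendritic cells, chosen by name, with earlier results of these data known, out of 55421 genes in the count tables. *Flt3* and *Zbtb46* are shared by conventional dendritic cells. *Xcr1*, *Clec9a* and *Batf3* belong to the type 1 subset, *Cd209a*, *Irf4* and *Ccr6* to the type 2 subset, and *Siglech* and *Tcf4* to plasmacytoid dendritic cells. They were measured by bulk RNA sequencing of splenic monocytes on the C57BL/6 background, with 3 mice per genotype, IL-4Rα+/+ or IL-4Rα-/-, and 1 library per mouse. The IL-4Rα-/- animals carry the deletion in every cell and not in monocytes alone, and the IL-4Rα+/+ animals are wild type for this receptor chain. The mice were adult per the study's methods, which name no treatment for them, and the sex of the mice is not given in the sources used here. Monocytes were enriched by negative selection, in which other spleen cells are bound by antibodies and removed, so cells that escape the antibodies stay in the sample. The comparison asks how the level of each dendritic cell gene stood in every library and whether it differed between the genotypes.

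Dendritic cells take up antigen, carry it to the T cell zones of lymphoid organs and present it to T cells. In the spleen, type 1 cells are specialised in presenting material of dead cells to CD8 T cells, type 2 cells mainly present to CD4 T cells, and plasmacytoid cells release type I interferon on sensing viral nucleic acid. Dendritic cells and monocytes share precursors and many genes, and several of the markers are not exclusive: *Irf4*, *Ccr6* and *Tcf4* are also used by B lineage cells, and *Cd209a* is also found on monocytes and on dendritic cells derived from them.

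Sequences just before the transcription start are shown for 1 gene of 3 of the groups, *Flt3* as the shared growth factor receptor, *Xcr1* as the type 1 chemokine receptor and *Cd209a* as the type 2 lectin, because their levels per length span the range of the 10 genes. Each is the 150 bases before the annotated start, written 5′ to 3′ on the gene's strand, from RefSeq promoter sequences of GRCm38.p6. They lie on the minus strand at chr5:147400490-147400639 for *Flt3*, chr9:123862030-123862179 for *Xcr1* and chr8:3748985-3749134 for *Cd209a*, and no annotated exon lies in any of them. Capitals mark an E box, CANNTG, the kind of motif that *Tcf4* protein binds.
Flt3: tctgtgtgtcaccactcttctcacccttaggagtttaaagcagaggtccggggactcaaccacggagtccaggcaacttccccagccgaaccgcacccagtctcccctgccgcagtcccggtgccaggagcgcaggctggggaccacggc
Xcr1: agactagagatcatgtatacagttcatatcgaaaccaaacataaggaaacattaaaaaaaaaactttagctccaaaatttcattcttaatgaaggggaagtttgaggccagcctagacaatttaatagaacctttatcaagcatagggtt
Cd209a: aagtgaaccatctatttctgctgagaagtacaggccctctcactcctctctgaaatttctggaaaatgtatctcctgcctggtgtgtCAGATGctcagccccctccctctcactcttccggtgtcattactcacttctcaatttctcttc
The E box was found in the *Cd209a* window and in neither of the others, where 47.7% of 32851 RefSeq promoters of the same length hold one. The windows were also searched on both strands for the PU.1 core GAGGAA, the AP-1 motif TGANTCA, a paired IRF motif made of GAAA, any 2 bases and GAAA, and a joined motif of TGANTCA, any 4 bases and GAAA, which holds the AP-1 motif within it. None of these 4 was found in the windows shown, and they occur in 14.5%, 4.24%, 1.59% and 0.0487% of all promoters of this length. In windows not shown, *Irf4* held a PU.1 core and *Zbtb46* an AP-1 motif. E boxes lay in the windows of *Zbtb46*, *Batf3* and *Siglech* and in 1 window of *Ccr6*, while that of *Clec9a* held no motif. Such a match describes letters in a window and says nothing about binding, and this assay did not measure binding.

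Between 26807281 and 29033297 reads per library were counted on genes, and levels are given as CPM, counts scaled to a common library size by edgeR's TMM method. *Il4ra*, the targeted gene (chromosome 7, 125552120 to 125579474), stood at 137, 128 and 177 CPM in IL-4Rα+/+ and at 27.9, 79.4 and 31.8 CPM in IL-4Rα-/- replicates 1, 2 and 3, without overlap between genotypes. All 14 of the monocyte markers in a list drawn up for the labelled cell type were expressed above the filter, at summed levels of 10732 to 15936 CPM in IL-4Rα+/+ and 9674 to 12567 CPM in IL-4Rα-/-, and *Csf1r* was the highest. The sums of markers of other cell types varied between libraries. A list of 12 B cell genes without *Ighm*, left out after its level was seen, summed to 135 and 233 CPM in IL-4Rα+/+ replicate 2 and IL-4Rα-/- replicate 3 and to 39.7 to 65.7 CPM in the other 4 libraries. T and NK cell genes were highest in the same pair of libraries, at 62.0 and 65.4 CPM against 16.9 to 26.6 CPM. Red pulp macrophage genes summed to 3618 to 4126 CPM in IL-4Rα+/+ and 4667 to 7335 CPM in IL-4Rα-/-, neutrophil genes to 58.8 to 254 and 122 to 634 CPM, plasma cell genes to 737 to 812 and 911 to 1335 CPM, and erythroid genes to 61.0 to 131 and 176 to 424 CPM. *Mmp8* was the highest of the neutrophil genes, at 170 CPM in IL-4Rα+/+ replicate 3 and 305 CPM in IL-4Rα-/- replicate 2. *Ly6g* of that list had 9 counts or fewer in each library. Pancreatic enzyme genes reached 299 CPM in IL-4Rα-/- replicate 2 and at most 33.2 CPM elsewhere. *Xist*, named after its values were seen, stood at 553 CPM in IL-4Rα+/+ replicate 1, at 457 CPM in IL-4Rα-/- replicate 3 and at no more than 3.73 CPM in the other 4 libraries. Because these are bulk samples, fewer cells of a type and less RNA per cell cannot be told apart in any value below.

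All 10 dendritic cell genes had enough reads for the test, and none differed between the genotypes after adjustment (0 of 10 by edgeR's quasi-likelihood test, Benjamini-Hochberg adjusted p under 0.15 over 13849 genes, where 0% of all genes tested passed). DESeq2 and limma-voom also called 0 of the 10, while DESeq2 called 80 of 14003 genes, 0.571%. At an unadjusted p under 0.05, 1 of the 10 was seen by each of edgeR, DESeq2 and limma-voom, against 8.09% of all genes in edgeR (3.72% higher and 4.37% lower in IL-4Rα-/-), and it was *Batf3*, which was lower. The sign of the log2 fold change was negative for 8 of the 10 genes and for 48.5% of all genes. The median log2 fold change was -0.14 over the 10 and 0.01 over all genes. The genotypes did not overlap in 1 of the 10 genes, against 15.5% of all genes tested (7.63% higher and 7.87% lower), and in 0 of the 10 with library totals or DESeq2 size factors in place of TMM. A count of 1 in 10 is near both background shares.

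**Figure D1:**
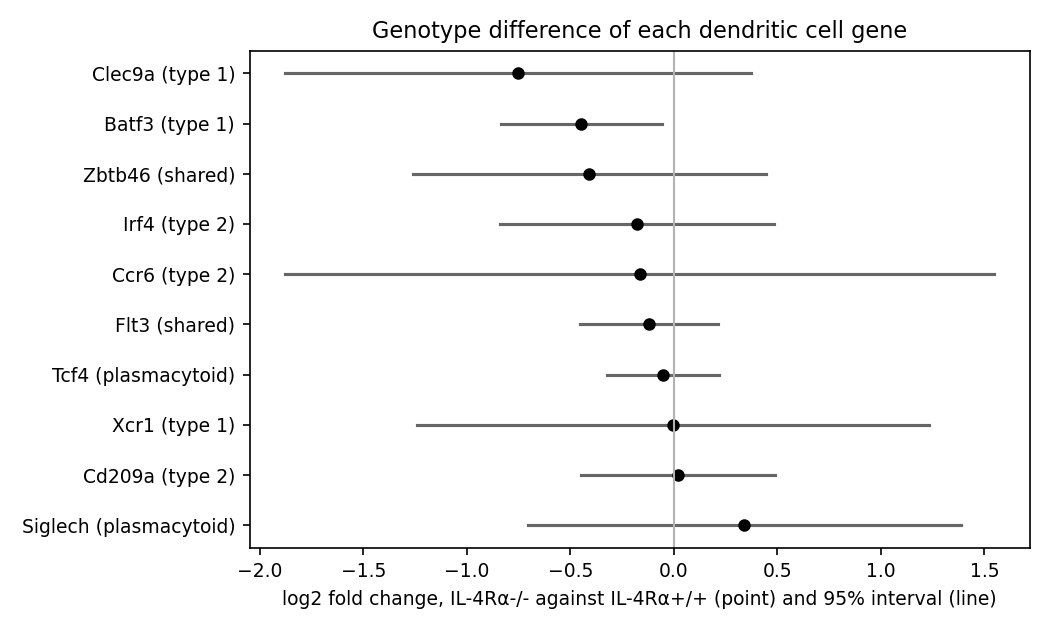
Log2 fold change of the 10 genes in IL-4Rα-/- against IL-4Rα+/+ libraries from edgeR (points) with its 95% interval (lines), n = 3 libraries per genotype, where the vertical line marks no difference. The values run from -0.75 for *Clec9a* to 0.34 for *Siglech*, and the interval of *Batf3* alone lies wholly below 0 before adjustment.

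*Flt3* (chromosome 5, 147330741 to 147400489) encodes the receptor for the growth factor that dendritic cells depend on. It had 65.4, 95.002 and 86.4 CPM in IL-4Rα+/+ replicates 1, 2 and 3 and 72.4, 76.0 and 78.4 CPM in the IL-4Rα-/- replicates in the same order. The 3 IL-4Rα-/- libraries lay inside the range of the IL-4Rα+/+ libraries. The means were 82.3 ± 15.2 and 75.6 ± 3.03 CPM (SD, n = 3), a log2 fold change of -0.12 with a standard error of 0.14 and a 95% interval of -0.46 to 0.21. It was -0.006 without IL-4Rα+/+ replicate 2, and -0.26 with an unadjusted p of 0.0253 in edgeR without IL-4Rα+/+ replicate 1. An antisense transcript that overlaps it had 6 counts or fewer in each library.

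*Zbtb46* (chromosome 2, 181387762 to 181459426) encodes a transcription factor that marks conventional dendritic cells and their committed precursors and sets them apart from monocytes. Its levels were 18.2, 16.6 and 8.38 CPM in IL-4Rα+/+ and 12.995, 6.90 and 12.7 CPM in IL-4Rα-/- replicates 1, 2 and 3. Each genotype held 1 low library, replicate 3 in IL-4Rα+/+ and replicate 2 in IL-4Rα-/-, and the groups overlapped. The mean was 14.4 ± 5.28 CPM in IL-4Rα+/+ and 10.9 ± 3.43 CPM in IL-4Rα-/- (SD, n = 3), a log2 fold change of -0.41 (SE 0.36, 95% interval -1.26 to 0.44). It was -0.17 without IL-4Rα-/- replicate 2 and -0.68 without IL-4Rα+/+ replicate 3. Both shared genes differed by less than the spread between mice.

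Among the type 1 genes, *Xcr1* (chromosome 9, 123852315 to 123862029) encodes the receptor for the chemokine XCL1, by which type 1 cells find activated T and NK cells. It was the lowest of the 10 genes, with 19, 62 and 30 counts in IL-4Rα+/+ and 49, 43 and 23 counts in IL-4Rα-/- replicates 1, 2 and 3. For the lowest and the highest library the exact Poisson intervals at 95% were 11.4 to 29.7 and 47.5 to 79.5 counts, which cover counting error only and do not overlap. As CPM the values were 0.668, 2.24 and 1.13 against 1.75, 1.51 and 0.778, with means of 1.35 ± 0.809 and 1.34 ± 0.505 (SD, n = 3). The log2 fold change was close to 0 with a 95% interval of -1.24 to 1.23, so a change of more than 2.35-fold upward lies outside it.

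*Clec9a* (chromosome 6, 129408862 to 129424763) encodes the receptor by which type 1 cells recognise actin filaments of dead cells. Its log2 fold change was the largest in size among the 10 with all 6 libraries, from 15.7, 22.9 and 8.34 CPM in IL-4Rα+/+ and 11.4, 4.52 and 11.9 CPM in IL-4Rα-/- replicates 1, 2 and 3. The groups overlapped, since IL-4Rα+/+ replicate 3 lay below 2 of the IL-4Rα-/- libraries, and IL-4Rα-/- replicate 2 was the lowest of all. The means of 15.6 ± 7.26 and 9.27 ± 4.12 CPM (SD, n = 3) gave a log2 fold change of -0.75 (SE 0.47, 95% interval -1.88 to 0.37). In edgeR's test its adjusted p was 0.659. Without IL-4Rα+/+ replicate 2 or IL-4Rα-/- replicate 2 the log2 fold change was -0.37 and -0.42, smaller in size than that of *Siglech*, at 0.69 and 0.64. Without IL-4Rα+/+ replicate 3 it was -1.05, with an unadjusted p of 0.0492 in edgeR. Exons of *Clec9a* overlap those of *Clec1b*, a lectin gene of platelets, on the same strand, and reads on shared bases are counted for neither gene. *Clec1b* held 221 to 563 counts per library, beside 129 to 632 for *Clec9a*, and a transcript inside a *Clec9a* intron, *Gm43914*, held 4 to 64, so the level of *Clec9a* is uncertain to that extent.

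*Batf3* (chromosome 1, 191097847 to 191108945) encodes the transcription factor without which type 1 cells do not develop in the spleen. Its levels were 36.4, 33.6 and 25.07 CPM in IL-4Rα+/+ and 25.06, 20.1 and 24.7 CPM in IL-4Rα-/- replicates 1, 2 and 3. The genotypes did not overlap, but only just, as the lowest IL-4Rα+/+ library and the highest IL-4Rα-/- library were nearly equal. Scaled by library totals alone they were 24.8 and 25.5 CPM, and by DESeq2 size factors 25.002 and 25.03 CPM, so the genotypes then overlapped. The means were 31.7 ± 5.90 and 23.3 ± 2.77 CPM (SD, n = 3), a log2 fold change of -0.45 (SE 0.16, 95% interval -0.83 to -0.06). The unadjusted p was 0.0299 and the adjusted p 0.618 in edgeR's test, and the two-sided exact permutation test gave 0.10, the smallest p that 3 against 3 libraries allow. Without IL-4Rα+/+ replicate 1, IL-4Rα+/+ replicate 2 or IL-4Rα-/- replicate 2 the unadjusted p in edgeR rose to 0.0969, 0.0867 and 0.0845, with log2 fold changes of -0.34, -0.40 and -0.35. Without IL-4Rα+/+ replicate 3 it fell to 0.00351 with a log2 fold change of -0.59, and the adjusted p was still 0.406. Without the pair of libraries high in B and T cell markers the log2 fold change was -0.45 with a p of 0.121 in edgeR, an alternative added after seeing the data. Reads of *Batf3* per read of *Xcr1* ran from 13.3 in IL-4Rα-/- replicate 2 to 54.5 in IL-4Rα+/+ replicate 1. Which cells the *Batf3* reads came from was not tested, so its level is not a measure of type 1 cells.

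*Clec9a* and *Batf3* were both above their 6-library means in IL-4Rα+/+ replicates 1 and 2 and lowest in IL-4Rα-/- replicate 2, while *Xcr1* departed from them. IL-4Rα+/+ replicate 1 was the lowest library for *Xcr1* and the highest for *Batf3*, and IL-4Rα-/- replicate 2 was the lowest for *Clec9a* and *Batf3* but above the 6-library mean for *Xcr1*. Reads of *Clec9a* per read of *Xcr1* came to 23.5, 10.2 and 7.37 in IL-4Rα+/+ and 6.53, 3.00 and 15.3 in IL-4Rα-/- replicates 1, 2 and 3. Reads of *Clec9a* per read of *Clec1b* came to 0.967, 1.85 and 1.00 against 0.568, 0.396 and 0.702. This last ratio was picked from 11 ratios after its values were seen, and no test is given for it.

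*Cd209a* (chromosome 8, 3743397 to 3748984), a C-type lectin of the DC-SIGN family whose upstream sequence is printed above, is the first of the type 2 genes. Its levels were 66.5, 106 and 77.8 CPM in IL-4Rα+/+ and 87.0, 70.5 and 96.8 CPM in IL-4Rα-/- replicates 1, 2 and 3. All IL-4Rα-/- libraries lay within the IL-4Rα+/+ range. *Cd209a* was highest in IL-4Rα+/+ replicate 2 and IL-4Rα-/- replicate 3, the libraries with the highest B cell and T cell marker sums. The part of those cells in the level of *Cd209a* was not tested. The means were nearly equal, at 83.6 ± 20.5 and 84.8 ± 13.3 CPM (SD, n = 3), with a log2 fold change of 0.02 (SE 0.20, 95% interval -0.45 to 0.49).

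*Irf4* (chromosome 13, 30749226 to 30766976) encodes a transcription factor that type 2 cells need for migration and presentation to CD4 T cells, and that B lineage cells use as well. It stood at 33.2, 51.3 and 46.8 CPM in IL-4Rα+/+ and at 37.8, 25.7 and 52.4 CPM in IL-4Rα-/- replicates 1, 2 and 3. The lowest and the highest of the 6 libraries were both IL-4Rα-/-, so the groups overlapped fully. *Irf4* was highest in IL-4Rα-/- replicate 3 and IL-4Rα+/+ replicate 2, the libraries with the highest B cell and T cell marker sums. The part of those cells in the level of *Irf4* was not tested. The means of 43.8 ± 9.46 and 38.6 ± 13.3 CPM (SD, n = 3) gave a log2 fold change of -0.18 (SE 0.28, 95% interval -0.84 to 0.48).

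*Ccr6* (chromosome 17, 8236043 to 8257141) encodes the receptor for CCL20, carried by some type 2 cells and by most mature B cells. It had 31, 78 and 19 counts in IL-4Rα+/+ and 48, 11 and 60 counts in IL-4Rα-/- replicates 1, 2 and 3. These are 1.09, 2.82 and 0.717 CPM against 1.71, 0.385 and 2.03 CPM, a 7.32-fold range that was the widest of the 10 genes. The means were 1.54 ± 1.12 and 1.38 ± 0.872 CPM (SD, n = 3), a log2 fold change of -0.16 (SE 0.72, 95% interval -1.88 to 1.55). Its highest libraries, IL-4Rα+/+ replicate 2 and IL-4Rα-/- replicate 3, were those with the highest B cell and T cell marker sums, and the part of those cells in the level of *Ccr6* was not tested.

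*Siglech* (chromosome 7, 55768178 to 55778925), a sialic acid binding receptor used to identify plasmacytoid cells in the mouse, had 43, 76 and 40 counts in IL-4Rα+/+ and 69, 37 and 105 counts in IL-4Rα-/- replicates 1, 2 and 3. These are 1.51, 2.75 and 1.51 CPM against 2.46, 1.296 and 3.55 CPM. The same pair of libraries as for *Ccr6* was highest, and the groups overlapped. The means of 1.92 ± 0.715 and 2.44 ± 1.13 CPM (SD, n = 3) gave the largest positive log2 fold change of the 10, 0.34 (SE 0.44, 95% interval -0.71 to 1.39), and without IL-4Rα-/- replicate 3 it was -0.03. B cell and T cell marker sums were highest in the same pair of libraries, and their part in this level was not tested.

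*Tcf4* (chromosome 18, 69343356 to 69689079) encodes the E protein that sets and keeps the plasmacytoid identity, and it is active in B cells and other cells too. It was the steadiest of the 10 genes, at 95.1, 105 and 116 CPM in IL-4Rα+/+ and 90.8, 113 and 101 CPM in IL-4Rα-/- replicates 1, 2 and 3. The ranges of the genotypes overlapped, with means of 106 ± 10.5 and 102 ± 11.3 CPM (SD, n = 3). The log2 fold change was -0.05 (SE 0.11, 95% interval -0.33 to 0.22), the narrowest interval of the 10. The ratio of *Tcf4* to *Siglech* reads ranged from 28.5 to 87.4, with both ends in IL-4Rα-/- libraries, replicates 3 and 2.

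**Figure D2:**
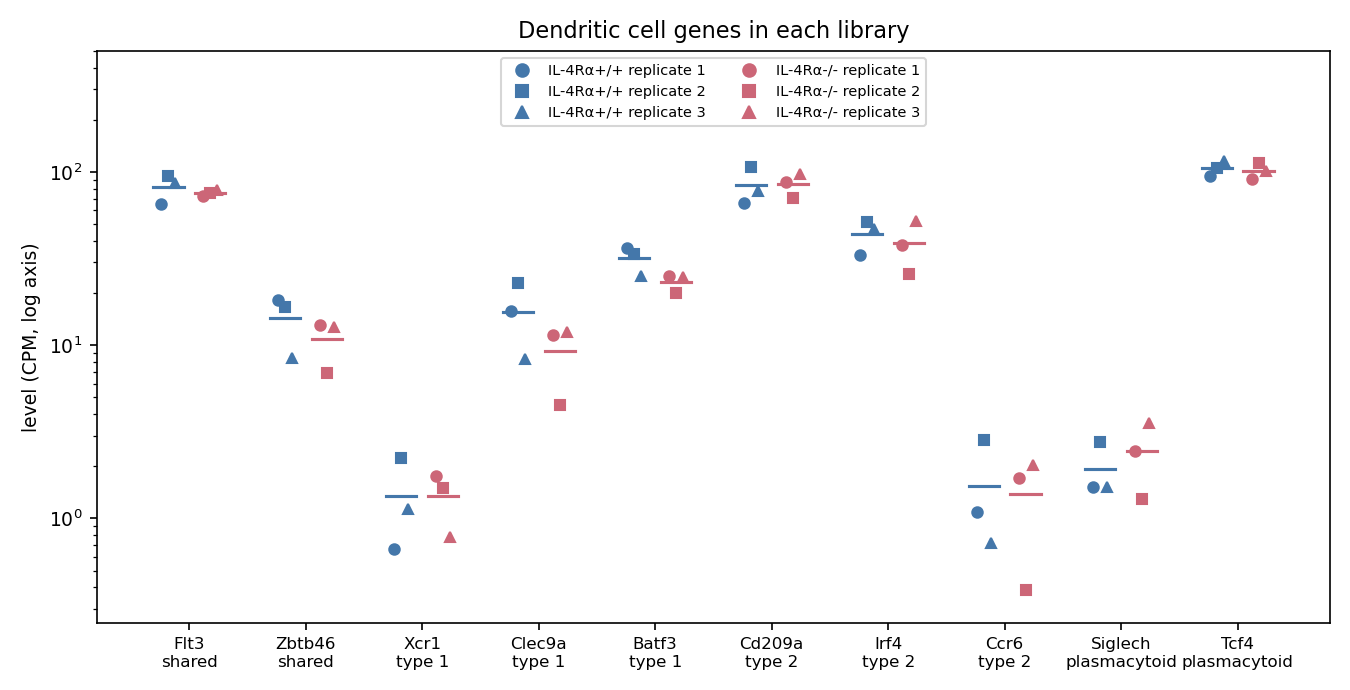
Level of each of the 10 genes in CPM on a log axis, with 1 point per library and a bar at the mean of the 3 libraries of a genotype. The genotypes overlap in 9 of the 10 genes, and in *Batf3* the gap between them, 25.07 against 25.06 CPM, is lost with library totals or DESeq2 size factors.

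For the 9 genes other than *Batf3* the adjusted p-values in edgeR lay between 0.659 and 0.999, and the exact permutation p-values between 0.4 and 0.9. The intervals of the differences are wide for the sparse genes, so a p above the threshold does not show that the genotypes act alike. The widest intervals were those of *Ccr6*, *Xcr1* and *Clec9a*.

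The spread within genotypes held most of the variation for 9 of the 10 genes, and *Batf3* was the exception. The share of the sum of squares of log2 CPM that lay between genotypes was 55.9% for *Batf3*, 27.3% for *Clec9a* and 14.8% for *Zbtb46*, and at most 9.19% for the other 7 genes. The median over the 10 was 7.87%, beside 17.8% over all genes tested. The SD of log2 CPM within genotypes was 1.09 for *Ccr6*, 0.76 for *Clec9a*, 0.72 for *Xcr1* and 0.61 for *Siglech*, and fell to 0.20 for *Flt3* and 0.15 for *Tcf4*. Its median was 0.50 over the 10 genes and 0.20 over all genes tested, and *Ccr6* lay above 97.5% of all genes. Of these genes *Ccr6*, *Xcr1* and *Siglech* had the fewest reads, and counting error adds to their spread.

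IL-4Rα-/- replicate 2 was the lowest library for 6 of the 10 genes: *Zbtb46*, *Clec9a*, *Batf3*, *Irf4*, *Ccr6* and *Siglech*. IL-4Rα+/+ replicate 2 was the highest for 5: *Flt3*, *Xcr1*, *Clec9a*, *Cd209a* and *Ccr6*. The share of all genes with the same lowest or highest library was not computed. These counts therefore do not show a trait of the dendritic cell genes. IL-4Rα-/- replicate 2 was also the library with the highest neutrophil and pancreatic sums, with 634 and 299 CPM, and with the lowest sums of monocyte and mature dendritic cell genes, 9674 and 217 CPM. The monocyte genes were split in this library. *Ccr2*, *Ly6c2* and *Cd14* were at their highest there, at 2008, 592 and 117 CPM. *Csf1r*, *Cx3cr1*, *Nr4a1*, *Ace*, *Spn*, *Adgre4*, *Itgal* and *Klf2* were at their lowest, so the low sum does not show fewer monocytes. The part of these differences in the levels of the 6 genes was not tested. The plot of deviations shows which genes were high in which libraries. *Ccr6* and *Siglech* were above their mean in IL-4Rα+/+ replicate 2 and IL-4Rα-/- replicates 1 and 3. *Zbtb46*, *Clec9a* and *Batf3* were above it in IL-4Rα+/+ replicates 1 and 2 and below it in IL-4Rα+/+ replicate 3 and IL-4Rα-/- replicate 2.

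**Figure D3:**
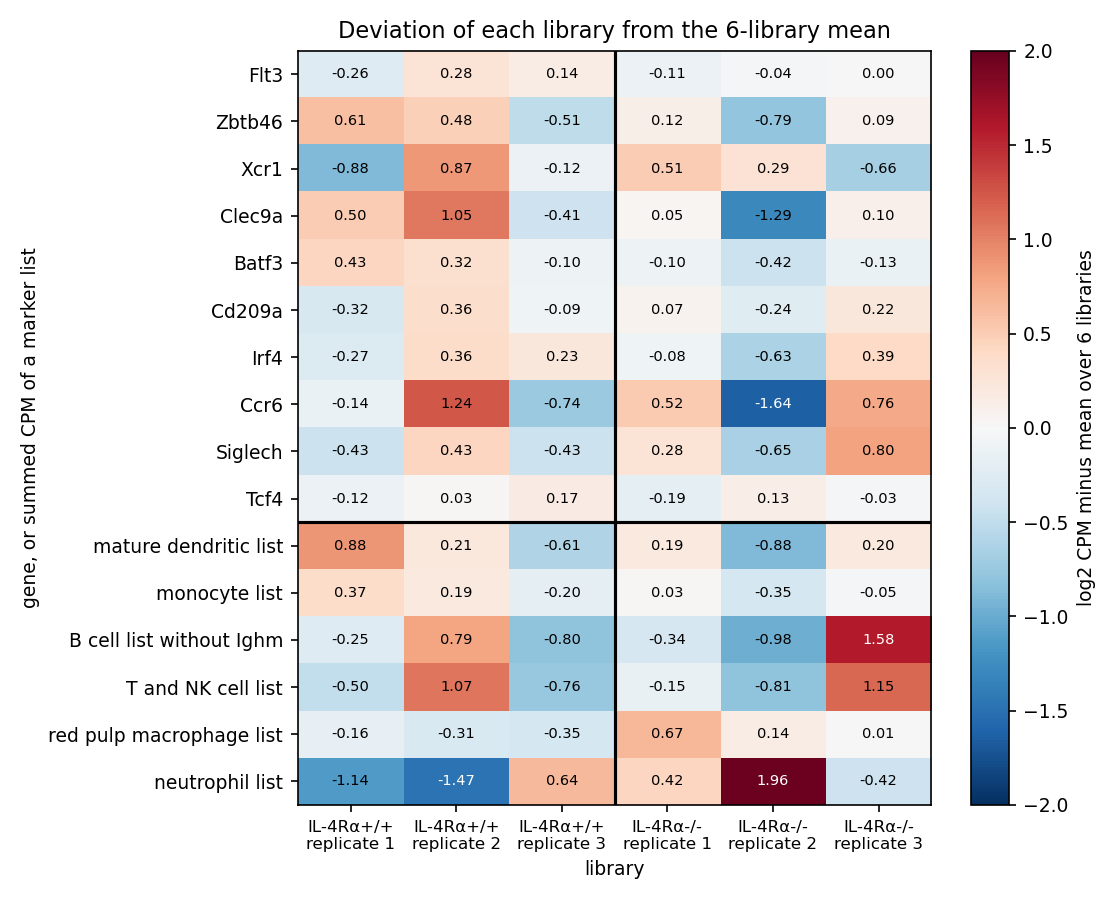
Log2 CPM of each gene, or of the summed CPM of a marker list, minus its mean over the 6 libraries, with libraries in columns and the value printed in each cell. IL-4Rα-/- replicate 2 is lowest for *Ccr6* at -1.64 and *Clec9a* at -1.29, and the B cell list without *Ighm* is highest in IL-4Rα-/- replicate 3 at 1.58.

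Levels of different genes were compared per length, as CPM per kilobase of annotated exons (RPKM). Averaged over the 6 libraries, *Cd209a* stood far above the rest at 53.2 RPKM, followed by *Batf3* at 17.2, *Flt3* at 12.8 and *Irf4* at 8.40 RPKM. *Tcf4* and *Clec9a* came next at 3.79 and 3.78 RPKM, then *Zbtb46* at 1.48, *Siglech* at 0.644, *Ccr6* at 0.629 and *Xcr1* at 0.302 RPKM. Among neighbours in this order only *Cd209a* and *Batf3*, and *Irf4* and *Tcf4*, had ranges over the 6 libraries that did not overlap. Compared within each library, 6 of the 9 neighbouring pairs stood in this order in all 6 libraries. The exceptions were *Tcf4* and *Clec9a*, and *Siglech* and *Ccr6*, which stood in this order in 3 of 6 libraries, and *Ccr6* and *Xcr1*, which did so in 5 of 6. *Tcf4* depends on the length used, because its annotated exons cover 27.4 kb while its longest transcript has 8.58 kb, and with the longest transcript it stood at 12.1 RPKM, above *Irf4* at 8.65 RPKM. The type 1 receptors were thus far apart per length, *Clec9a* at 3.78 and *Xcr1* at 0.302 RPKM, and so were the plasmacytoid genes *Tcf4* and *Siglech*.

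**Figure D4:**
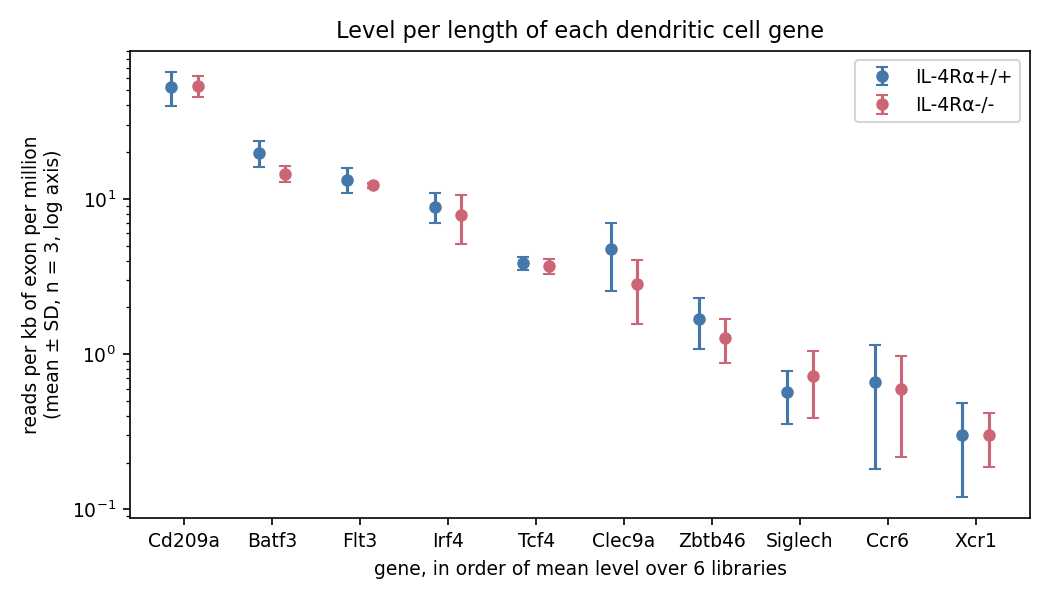
Level in RPKM on a log axis for each gene, as the mean of 3 libraries per genotype with SD, in order of the mean over 6 libraries. *Cd209a* stands highest at 52.8 and 53.6 RPKM in IL-4Rα+/+ and IL-4Rα-/-, and *Xcr1* lowest at 0.303 and 0.302 RPKM.

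The rest of each program was followed in wider lists that hold none of the 10 genes. Among 8 other genes of conventional dendritic cells, 2 were higher and 6 lower in IL-4Rα-/-, with a median log2 fold change of -0.10 (0.03 without IL-4Rα+/+ replicate 2), and none had an unadjusted p under 0.05 in edgeR (0 of 8). *Itgax*, the integrin CD11c, was at 386 ± 170 and 273 ± 91.1 CPM (SD, n = 3), and *Dpp4* at 80.7 ± 31.2 and 60.4 ± 14.5 CPM (SD, n = 3). Both ranges overlapped between the genotypes. The 4 wider dendritic cell lists had 0 genes past the adjusted threshold in edgeR and in DESeq2, where 0% and 0.571% of all genes passed. For comparison with each list, 8.09% of all genes tested had an unadjusted p under 0.05 in edgeR, and 15.5% did not overlap between the genotypes.

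Of 17 other type 1 genes, 16 were tested and 1, the adaptor *Clnk*, had 3 counts or fewer in each library. Of the 16, 7 were higher and 9 lower in IL-4Rα-/-, with a median log2 fold change of -0.09, which was 0.15 without IL-4Rα+/+ replicate 2. *Wdfy4*, which type 1 cells need for cross-presentation, stood at 286 ± 13.6 and 242 ± 8.59 CPM (SD, n = 3), a log2 fold change of -0.24 (SE 0.07) without overlap. *Cd24a*, which is also high on immature red cells and B cells, stood at 16.4 ± 1.67 and 27.9 ± 10.9 CPM (SD, n = 3), a log2 fold change of 0.77 (SE 0.27) with overlap. They were the 2 of the 16 genes with an unadjusted p under 0.05 in edgeR, beside 8.09% of all genes, and the adjusted p of each was 0.618. Which cells the *Wdfy4* reads came from was not tested. The erythroid sums given above were higher in each IL-4Rα-/- library, and their part in the level of *Cd24a* was not tested.

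Of 19 other type 2 genes, 6 were higher and 13 lower, with a median log2 fold change of -0.10, which ran from -0.31 to -0.01 when each library was left out. *Notch2*, the receptor that the splenic type 2 subset with *Esam* requires, stood at 705, 726 and 547 CPM in IL-4Rα+/+ and 469, 437 and 522 CPM in IL-4Rα-/- replicates 1, 2 and 3. It was the 1 gene of this list with an unadjusted p under 0.05 in edgeR, with a log2 fold change of -0.47 (SE 0.13), an adjusted p of 0.618 and no overlap. *Esam* itself stood at 2.86 ± 0.778 and 3.49 ± 1.77 CPM (SD, n = 3), with overlap. The samples are enriched monocytes, and their part in the level of *Notch2* was not tested. *Sirpa*, a surface marker that type 2 cells share with monocytes, stood at 1138 ± 55.4 and 1191 ± 93.0 CPM (SD, n = 3).

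Of 20 other plasmacytoid genes, 17 were tested, 8 were higher and 9 lower, with a median log2 fold change of -0.09, which was 0.04 without IL-4Rα+/+ replicate 2 and 0.08 without IL-4Rα-/- replicate 2. *Ptcra*, a defining gene of these cells, had 3 counts or fewer in each library. *Bst2*, an interferon-induced surface protein that other activated cells carry too, had the 1 unadjusted p under 0.05 in edgeR, with 102 ± 8.57 and 122 ± 12.4 CPM (SD, n = 3), a log2 fold change of 0.26 (SE 0.10) and an adjusted p of 0.618. Its ranges overlapped. *Irf7*, the regulator of type I interferon genes and the highest of the list, stood at 409 ± 50.8 and 425 ± 38.4 CPM (SD, n = 3).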

How the data were processed

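Spleen monocytes of 6 mice were sequenced as single-end reads of 75 bp from directional poly(A) libraries. The authors aligned the reads to GRCm38 with STAR 2.6.1a and deposited raw counts per gene, not normalised. Which strand column of STAR was kept is not given in the sources used here, so overlapping genes are uncertain. The 4 summary lines of each table, 21.1 to 22.8% of all reads, were left out. Symbols and lengths came from a Gencode release near the authors' own, matching 55154 of 55421 identifiers. No columns were left unused.

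Genes were kept by filterByExpr with a minimum count of 10 (13849 genes), normalised by TMM and tested with edgeR 4.0.16 in R 4.3.3, using all 6 libraries, no covariate, Benjamini-Hochberg adjustment and a threshold of 0.15. Alternatives were DESeq2 1.42.0, limma-voom (limma 3.58.1), other scalings and filters, a replicate block and each library left out. Log2 CPM used a prior count of 2. For single genes an exact permutation test (two-sided) over the 20 labelings was added. The steps were tested on simulated data with larger changes than those of the dendritic cell genes and the same spread for all genes. That test does not show whether differences of the size seen here would be found.

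The 10 genes and all lists were chosen with earlier results of these data known. Named were *Il4ra*, the 10 genes, in each wider list the genes with an unadjusted p under 0.05 or else those with the highest level, overlapping genes, the highest marker gene of a list, genes with 3 counts or fewer, and the 3 genes nearest to *Xcr1*, *Cd209a* and *Siglech*. In the marker lists *Faim3* and *Ahsp* found no match. Of the 10 genes 9 had a RefSeq promoter. Replicates are separate mice. Counting error adds to the spread of *Xcr1*, *Ccr6* and *Siglech*, which had the fewest reads.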

Additional observations from a re-analysis of the deposited data

How the results depend on the processing

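None of the 10 dendritic cell genes passed the adjusted threshold in the 14 alternatives run (0 genes in each), and their adjusted p-values ranged from 0.406 to 0.999. Over all genes, 0 passed in edgeR and limma-voom under each alternative and 80 in DESeq2, and the cause was not tested. At an unadjusted p under 0.05 there were 1120 genes, 627 to 1724 when each library was left out in turn, and 446 in the 4 libraries low in B and T cell markers, where fewer samples were used. The log2 fold changes of *Flt3*, *Zbtb46*, *Clec9a* and *Batf3* stayed negative under each alternative, and ranged from -0.26 to -0.006, -0.68 to -0.17, -1.05 to -0.37 and -0.59 to -0.34 when each library was left out. Those of the other 6 changed sign under some, and the cause was not tested. *Xcr1* was at 0.016 with library totals only, 0.085 in limma-voom and 0.85 in the 4 libraries, and ranged from -0.33 to 0.58 when each library was left out. The same ranges were -0.12 to 0.23 for *Cd209a*, -0.46 to 0.043 for *Irf4*, -0.55 to 0.60 for *Ccr6*, -0.032 to 0.69 for *Siglech* and -0.14 to 0.023 for *Tcf4*. *Ccr6* was at 0.20 in the 4 libraries. *Xcr1* and *Ccr6* could not be fitted at a minimum count of 50. Whether the replicate numbers pair the libraries is not given in the sources used here, and same-numbered libraries had correlations of 0.185, -0.271 and -0.296. With the number as a block, *Xcr1* was at 0.063, 765 genes had an unadjusted p under 0.05 in edgeR and 0 passed adjustment. The genotypes overlapped in all 10 genes (0 without overlap, against 1) with library totals or DESeq2 size factors, 2 scalings added after seeing the data. Of 42 values of list medians, 5 changed sign. Without IL-4Rα+/+ replicate 2 the medians were 0.03 for shared genes, 0.15 for type 1 and 0.04 for plasmacytoid genes, without IL-4Rα-/- replicate 2 the last was 0.08, and without IL-4Rα+/+ replicate 1 that of mature dendritic genes was 0.06. Depth limits *Xcr1*, *Ccr6* and *Siglech*, which had 105 counts or fewer in every library.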

Other observations

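Genes of matured dendritic cells and of class II presentation, which belong to none of the subsets, were described in the same way. Of 10 genes of matured, migrating dendritic cells 9 were tested, and all 9 were lower in IL-4Rα-/- by sign, where 48.5% of all genes were, with a median log2 fold change of -0.38 and none at an unadjusted p under 0.05 in edgeR (0 of 9). Over all genes tested, 8.09% had such a p. The median was 0.06 without IL-4Rα+/+ replicate 1 and -0.11 without IL-4Rα-/- replicate 2, so the direction rested on 1 library. Their summed level was 734, 462 and 262 CPM in IL-4Rα+/+ and 455, 217 and 458 CPM in IL-4Rα-/- replicates 1, 2 and 3, so the groups overlapped. *Fscn1*, the actin-bundling protein of mature dendritic cells, stood at 173 ± 86.2 and 132 ± 50.8 CPM (SD, n = 3), and the chemokine *Ccl5* at 102 ± 54.6 and 77.8 ± 37.4 CPM (SD, n = 3). IL-4Rα+/+ replicate 1 was highest for both, and IL-4Rα-/- replicate 2 lowest. Of 9 class II genes 2 were higher and 7 lower, with a median log2 fold change of -0.36, which was -0.19 without IL-4Rα+/+ replicate 2. *Cd74*, the invariant chain, stood at 3288, 3202 and 2399 CPM in IL-4Rα+/+ and 2511, 2051 and 2326 CPM in IL-4Rα-/- replicates 1, 2 and 3, with overlap. Its log2 fold change was -0.37 (SE 0.14), with an unadjusted p of 0.0402 and an adjusted p of 0.618 in edgeR. *H2-Aa*, a chain of the class II molecule itself, stood at 1133 ± 218 and 886 ± 102 CPM (SD, n = 3). B cells express these class II genes as well, and their part was not tested.

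The genes nearest to 3 of the markers across the 6 libraries were found by the root mean square difference of centred log2 CPM. This is a description with no test, since all points share their libraries and depth. The difference is not scaled to the spread of each gene, so a steady gene can lie near a marker without sharing its pattern. Nearest to *Siglech* were *Btla* (0.11), an inhibitory receptor of lymphocytes and dendritic cells, *Mmp28* (0.13) and *Myo1h* (0.17). *Btla* stood at 36.3, 65.2 and 42.6 CPM in IL-4Rα+/+ and 63.7, 34.4 and 77.2 CPM in IL-4Rα-/- replicates 1, 2 and 3. Nearest to *Cd209a* were *Foxd2os* (0.05), *C920006O11Rik* (0.06) and *Cmpk2* (0.07), the last an interferon-induced kinase. Nearest to *Xcr1* were *Fam71e1* (0.18) and *C130089K02Rik* (0.22), both under 2 CPM in each library, and another transcript known only by a clone name (0.25). Among the 10 genes, the one nearest to *Xcr1* was *Flt3* (0.50) and not *Clec9a* (0.91). The steadiest gene, *Tcf4*, was at 0.58 from *Xcr1*, so these distances do not show a shared pattern. The one nearest to *Siglech* was *Cd209a* (0.32) and not *Tcf4* (0.58). *Cd209a* was nearest to *Flt3* (0.17) and then to *Irf4* (0.23).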
